A study of Mus musculus with 12 samples.

Results

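Of the 12 heart arrays, the 3 described here are the exercised arrays richest in liver transcripts, which were replicates 1, 5 and 6 of the 6 exercised hearts. They were chosen as the 3 exercised arrays with the highest signal of Apoa2, an apolipoprotein of high-density lipoprotein made mainly by hepatocytes. They are set against the other exercised arrays, replicates 2, 3 and 4. The array nearest to the boundary on the inside was replicate 1 at 12.46, and the nearest on the outside was replicate 2 at 9.67 (log2 normalized intensity of Apoa2). Both exercised groups came from male mice of the C57Bl/6 strain, 8 weeks old, that had run voluntarily in wheels for 7 days; the tissue was the whole heart. The 6 sedentary hearts came from male C57Bl/6 mice of the same age kept without running. Biotin-labelled cRNA made from total RNA was hybridised to Illumina beadchips with 45281 probes, 1 array per sample, and the study asked which cardiac transcripts respond to running. The labels only number the replicates and name no separate animals, so any spread or p-value given concerns these samples and may be technical. Precision is limited by how few arrays there are.

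Because the arrays were chosen by a liver gene measured in the same contrast, the differences between them are descriptions and carry no test. All levels are log2 normalized intensities, and differences are liver-transcript-rich minus other exercised arrays on the same log2 scale. A gene was considered where its probe passed the detection threshold (p under 0.01) in 3 or more of the 6 exercised arrays, which 10089 genes met. A gene seen on the 3 liver-transcript-rich arrays alone therefore passed by being high there. A gene was called when the arrays of one kind all lay beyond those of the other and the means differed by at least 1 log2 unit, that is 2-fold.

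Hepatocytes, the main cells of the liver, secrete most of the proteins of blood plasma, turn ammonia into urea and break down amino acids, and hold the cytochromes P450 that oxidise drugs, steroids and bile acid precursors. Their identity rests on transcription factors such as HNF4A, HNF1 and the FOXA proteins. Cardiac muscle is not known for most of these products, while both tissues share much of the machinery of fatty acid oxidation and peroxisomes.

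Raw background came in a low and a high range: the median raw intensity was 48.6 to 53.3 for 8 arrays, whereas 4 arrays had medians between 130.5 and 138.6. The high range held replicate 6 of the liver-transcript-rich arrays, replicates 2 and 3 of the other exercised arrays, and sedentary replicate 2. Differences are therefore also given within the low range, as the mean of replicates 1 and 5 minus replicate 4, and within the high range, as replicate 6 minus the mean of replicates 2 and 3. Between 16619 and 18708 probes were detected per array.

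The other liver markers were divided between the same arrays as Apoa2. Apoa2 was at 12.46, 13.99 and 14.41 on replicates 1, 5 and 6, against 9.67, 7.79 and 8.11 on replicates 2, 3 and 4, and at 6.51 to 9.50 (median 7.55) in sedentary hearts. Its deposited raw intensity was 3679.8, 12189.5 and 36568.7 on replicates 1, 5 and 6, against 1335.4, 457.8 and 212.4 on replicates 2, 3 and 4. The gap between inside and outside was wide on the normalized scale. A second Apoa2 probe gave 11.83, 13.27 and 14.02 on the liver-transcript-rich arrays, against 8.98, 7.26 and 7.51 on the other exercised arrays. Ass1, argininosuccinate synthase of the urea cycle, was at 8.74, 10.29 and 11.21 against 6.65, 6.44 and 6.41, with sedentary hearts at 6.00 to 7.56. F2, prothrombin, was at 7.64, 9.31 and 10.17 against 5.82, 4.94 and 4.81, with sedentary hearts at 4.73 to 5.49 (median 5.14). Hnf4a, a nuclear receptor that maintains hepatocyte identity, was at 6.78, 7.93 and 8.90 against 5.43, 5.51 and 5.22, with sedentary hearts at 4.74 to 5.39 (median 4.99). The groups did not overlap for any of the 4 markers (4.34% of all genes were higher without overlap in this contrast, which also chose the arrays), and replicate 6 was highest and replicate 1 lowest of the liver-transcript-rich arrays in each. The differences were 5.09 for Apoa2, 3.58 for Ass1, 3.85 for F2, which was detected on 1 of the other exercised arrays, and 2.49 for Hnf4a.

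**Figure D1:**
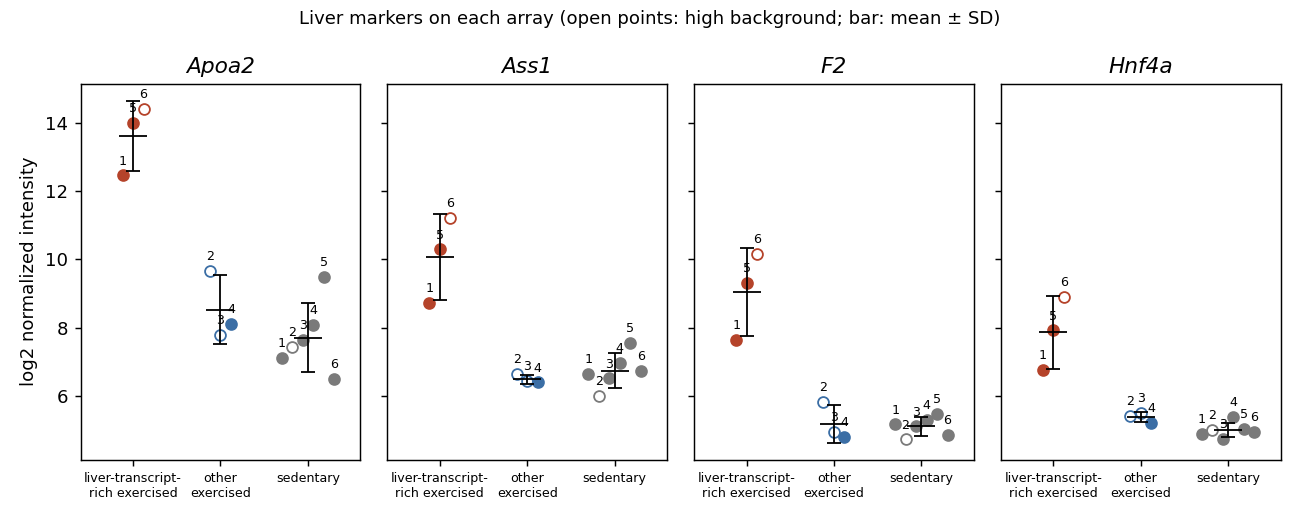
Level of Apoa2, Ass1, F2 and Hnf4a (log2 normalized intensity) on each of the 12 arrays, with the replicate number above each point, open points for arrays of high raw background, and bars for the mean ± SD of 3, 3 and 6 arrays. For each gene the liver-transcript-rich arrays lie above all other arrays, with replicate 6 on top and replicate 1 at the bottom; Apoa2 chose the arrays.

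Not every hepatocyte marker gave a signal. The probe of Alb, albumin, was detected on replicate 6 alone, at 5.35, and that of Fgb, the fibrinogen beta chain, on no array. Whether these probes measure the main transcripts of their genes was not tested, so their low signal does not give the level of the genes. Fga, the fibrinogen alpha chain, was at 10.02, 11.55 and 12.66 on replicates 1, 5 and 6, against 7.04, 6.57 and 5.71 on replicates 2, 3 and 4. Among the 207 genes of the 11 hepatocyte lists on the array, 43 did not pass the detection filter, of which 29 were detected on replicate 6 and 12 on no exercised array. In whole tissue, a change in the number of cells of a type and a change in RNA per cell cannot be told apart.

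Across all genes, 260 were called higher in the liver-transcript-rich arrays (2.58% of 10089) and 0 were called lower (0.0%). The median difference of all genes was -0.06. Of the 260 genes, 119 were higher by at least 3 log2 units and 58 by at least 4, with a median of 2.85 and a maximum of 5.52. The liver-transcript-rich arrays lay above every one of the other 9 arrays, sedentary hearts included, for 240 of them. The call had already fixed the part of this count that concerns the other exercised arrays. Its share over all genes was not counted, so nothing is read from it. Within both background ranges taken singly, 226 of the 260 genes were higher by at least 1. The call itself made every within-range difference positive, so only the size is described, and the share over all genes was not counted. The within-range differences were 0.38 to 5.64 (median 2.38) in the low range and 1.27 to 6.27 (median 3.95) in the high range. Of the 260 genes, 76 were detected on all of the other exercised arrays, 41 on 2 of them, 43 on 1 and 100 on none. For those 100 the difference has only a lower bound, taken as the mean of the liver-transcript-rich arrays over the mean, on the others, of the higher of the lowest signal of any detected probe and the signal of the gene's own probe. Such genes passed the filter only by being high on the liver-transcript-rich arrays, so the counts and medians of lists below describe the lists and support nothing. Each count of called members below stands beside the 2.58% of all genes called higher. Medians of lists are of measured differences, and a median with bounds puts those genes at their lower bound. Where several probes of a called gene passed, which held for 76 genes, every passing probe was called in 64. The number called depends on which genes are admitted: with detection required on all 6 exercised arrays, 76 of 8739 genes were called higher. It also depends on the values used. The authors' deposited values gave 162 over the same 10089 genes, with 438 again higher without overlap.

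**Figure D2:**
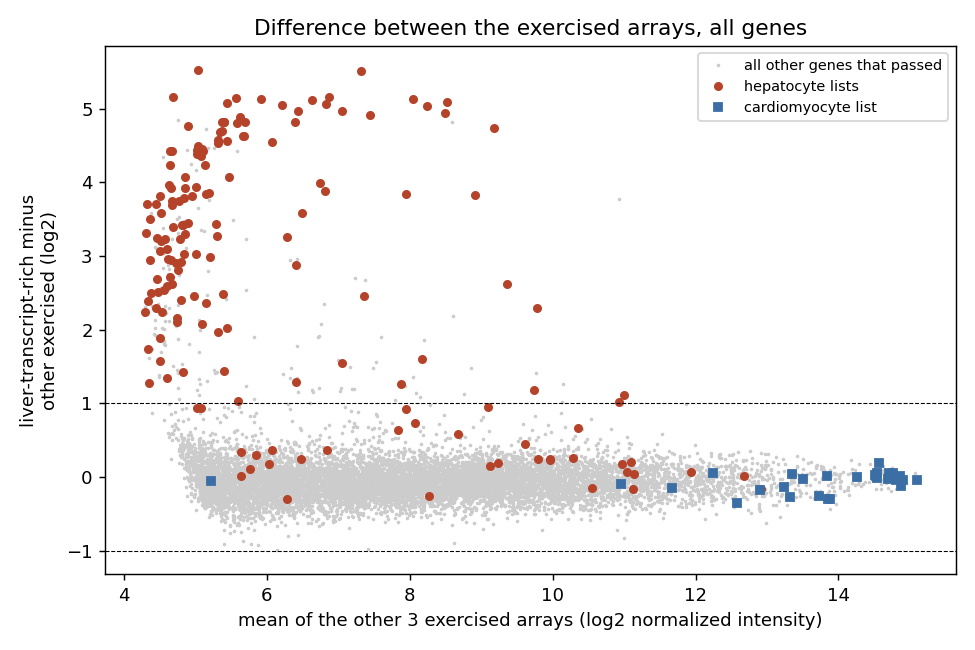
Difference between the liver-transcript-rich and the other exercised arrays (log2, vertical axis) against the mean of the other exercised arrays (log2 normalized intensity, horizontal axis) for the 10089 genes that passed, with members of the hepatocyte lists as red circles, members of the cardiomyocyte list as blue squares and dashed lines at 1 and -1. No gene lies below the lower line, and most genes above the upper line sit at the low end of the horizontal axis.

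The largest differences among genes detected on all 6 exercised arrays belonged to secreted plasma proteins. Apoa1, the main protein of high-density lipoprotein, was at 11.64, 12.92 and 13.89 on replicates 1, 5 and 6, against 8.19, 7.11 and 6.64 on replicates 2, 3 and 4, a difference of 5.50. Kng1, the precursor of bradykinin, was at 10.84, 12.09 and 13.16 against 7.68, 6.72 and 6.20, a difference of 5.16. Ttr, the carrier of thyroxine and retinol-binding protein, was at 11.96, 13.59 and 14.00 against 9.20, 7.33 and 7.62, a difference of 5.13. In each of these genes the lowest liver-transcript-rich array stood more than 2 log2 units above the highest of the others. Ambp, the precursor of alpha-1-microglobulin and bikunin, differed by 5.11, Azgp1, a zinc-binding glycoprotein, by 5.04, and Fga by 4.97. Serpina1a, Serpina1b, Serpina1c, Serpina1d and Serpina1e, which encode the alpha-1-antitrypsins of the mouse, differed by 5.07, 4.94, 4.97, 5.03 and 5.06. These 5 genes are near-identical copies, so their probes may share signal and their levels are uncertain singly.

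In the list of plasma carriers and protease inhibitors, 21 of the 21 members that passed were called higher, with a median difference of 4.74, also with bounds for the 3 detected on none of the other exercised arrays. Hpx, hemopexin, which binds free heme, was at 9.44, 11.09 and 12.59 on replicates 1, 5 and 6, against 6.80, 5.84 and 5.11 on replicates 2, 3 and 4, of which 2 detected it. Ahsg, fetuin-A, an inhibitor of calcification, was alike on the other exercised arrays: it was at 10.61, 11.95 and 12.80 against 7.96, 8.04 and 7.83, a difference of 3.84. Mup20 and Mup3, major urinary proteins that carry pheromones, differed by 5.16 and 4.74, and they too belong to a family of near-identical copies. In the list of apolipoproteins, 10 of the 12 members that passed were called, with a median of 4.25, or 4.10 with bounds for the 3 detected on none of the other exercised arrays. The 10 include Apoa2, whose signal chose the arrays. Apoc4, a minor apolipoprotein, had the largest measured difference of all genes, 5.52, from levels of 9.43, 11.08 and 11.18 against 5.98, 4.53 and 4.62. It was detected on 1 of the other exercised arrays, so this size and rank rest in part on undetected signals. Apoe, which heart and macrophages also express, was at 10.20, 11.36 and 11.97 against 9.55, 9.80 and 9.96, a difference of 1.41; it is in no list used here.

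Of the coagulation and fibrinolysis list, 17 of the 17 members that passed were called higher, with a median of 3.70, or 3.23 with bounds. Of the 17, 7 were detected on none of the other exercised arrays and 3 on all 6 exercised arrays. Plg, plasminogen, was at 7.49, 9.11 and 10.71 on replicates 1, 5 and 6, against 5.01, 4.45 and 4.56 on replicates 2, 3 and 4, and was detected on 1 of the other exercised arrays. Serpinc1, antithrombin, had the smallest measured difference of the list, with 5.45, 5.79 and 5.65 on the liver-transcript-rich arrays, and was detected on none of the other exercised arrays. Of the complement and acute phase list, 16 of 20 were called, with a median of 2.55, or 2.13 with bounds for the 9 detected on none of the other exercised arrays. Crp, C-reactive protein, was at 8.43, 10.15 and 11.09 against 5.71, 5.04 and 5.17, of which 1 array detected it. Hamp, the iron hormone hepcidin, overlapped between the groups at 8.71, 10.01 and 10.58 against 7.88, 7.65 and 8.99, with sedentary hearts at 5.13 to 8.80. Lbp, which binds bacterial lipopolysaccharide, and Masp1, a protease of the lectin pathway, differed by 0.24 and -0.26 and were not called.

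The next lists hold enzymes of hepatocyte metabolism. Of the urea cycle and amino acid list, 15 of 18 members that passed were called, with a median of 3.52, or 3.26 with bounds for 7 of them. Cps1, which makes carbamoyl phosphate and commits ammonia to the urea cycle, was at 8.41, 9.97 and 11.85 on replicates 1, 5 and 6, against 6.14, 5.50 and 4.49 on replicates 2, 3 and 4. Arg1, arginase, was at 8.80, 10.48 and 11.37 against 6.02, 5.52 and 4.68. Cps1 and Arg1 were each detected on 2 of the other exercised arrays. Mat1a, the liver form of S-adenosylmethionine synthetase, was at 9.89, 11.21 and 12.52 against 7.30, 6.30 and 5.56. Replicate 6 lay more than 2 log2 units above replicate 1 in each of these enzymes. Oat, ornithine aminotransferase, differed by -0.16 and Aldh4a1, of proline breakdown, by 0.07, and neither was called. Fah, of tyrosine breakdown, was called at 1.17, with 10.44, 10.89 and 11.41 against 9.60, 9.83 and 9.77.

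Of the cytochrome P450 list, 19 of 20 members that passed were called, with a median of 3.93, or 3.89 with bounds for 5 of them. Cyp2e1, which oxidises ethanol and other small molecules, was at 11.61, 12.59 and 14.05 on replicates 1, 5 and 6, against 8.77, 10.04 and 7.94 on replicates 2, 3 and 4. Replicate 3 was high among the other exercised arrays for Cyp2e1, and also for the adipocyte genes Adipoq, at 8.96 against 5.53 and 7.76 on replicates 2 and 4, and Cidec, at 7.44 against 4.38 and 5.53. Cyp7a1, the rate-limiting enzyme of bile acid synthesis, was at 6.71, 7.93 and 9.61 on the liver-transcript-rich arrays and detected on none of the other exercised arrays. Cyp27a1, a mitochondrial sterol hydroxylase present in many tissues, was the member not called, at 9.41, 10.07 and 10.65 against 8.60, 9.51 and 9.16. Of the bile acid list, 9 of 12 members that passed were called, with a median of 2.67, or 2.34 with bounds for 3 of them, among them Slco1b2, an uptake transporter of the sinusoidal membrane, with a difference of 4.82. Abcb4, which exports phospholipid into bile, differed by 0.24.

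Genes detected on none of the other exercised arrays have only the lower bound defined above. For the 100 such called genes the bound ran between 1.47-fold, for Serpinc1, and 16.1-fold, with a median of 4.40-fold. Cyp4a12a, a fatty acid hydroxylase of male liver, was at 7.49, 9.63 and 10.12 on replicates 1, 5 and 6 and at least 16.1-fold higher. Cyp2c67 was at least 14.1-fold higher, Hsd3b5, a steroid dehydrogenase of male liver, at least 13.7-fold and Asgr1, the asialoglycoprotein receptor of hepatocytes, at least 13.3-fold. Hao1, a peroxisomal glycolate oxidase, was at least 11.5-fold higher, Cyp2d26 at least 11.3-fold, Apob, the scaffold of very-low-density lipoprotein, at least 10.9-fold, and Ftcd, of histidine breakdown, at least 10.2-fold. Haao, of tryptophan breakdown, was at least 9.73-fold higher, Hpd, of tyrosine breakdown, at least 9.47-fold, F13b, a subunit of coagulation factor XIII, at least 8.45-fold, and Igfbp2, which binds insulin-like growth factors, at least 7.68-fold. Of these 12, Cyp2c67, Hsd3b5, Asgr1 and Hao1 were detected on 1 of the 6 sedentary arrays each and the other 8 on none. The Cyp2c and Cyp2d genes belong to families of close copies, so signal may be shared between them.

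The remaining lists were mixed. Of 20 conjugating enzymes 12 were called, with a median of 1.20, and of 11 genes of gluconeogenesis, glycogen and fructose metabolism 6 were called, with a median of 1.27. Fbp1, fructose bisphosphatase of gluconeogenesis, was at 7.29, 8.82 and 9.60 on replicates 1, 5 and 6, against 5.66, 4.99 and 5.26 on replicates 2, 3 and 4, of which 2 detected it. Igf1, the growth factor that liver supplies to the circulation and heart also expresses, was at 7.99, 8.87 and 8.94 against 7.02, 6.76 and 7.37. Of 11 genes of ketogenesis and peroxisomes 5 were called, with a median of 0.37: Uox, urate oxidase, differed by 4.68, while Cat, catalase, differed by 0.25 and Crat, carnitine acetyltransferase, by -0.16. Of 9 hepatocyte transcription factors 4 were called, with a median of 0.20. The medians of these 4 lists are the same with bounds. These were Foxa3, a forkhead factor, at 6.66, 7.78 and 9.16 on the liver-transcript-rich arrays and at least 6.93-fold higher; Hnf4a; Nr1h4, the bile acid receptor FXR, with a difference of 1.96; and Onecut2, at least 2.01-fold higher. Cebpb, Prox1, Ppara and Xbp1, which heart cells also express, differed by 0.20, 0.15, 0.02 and 0.18, and Nr1i3, the nuclear receptor CAR, by -0.30. Cebpa and Foxa2 did not pass the filter; Cebpa was detected on 2 exercised arrays and Foxa2 on replicate 6, at 6.21 and 5.35 on that array.

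Over all 11 hepatocyte lists, 128 of the 164 genes that passed were called higher, where 2.58% of all genes were. Of the 164, 43 were detected on none of the other exercised arrays and passed only by being high on the chosen ones. The median difference was 3.05, or 2.69 with undetected levels set at their bounds. Over the 207 on the array, filtered or not, the median was 2.40. The median over all genes on the array was -0.03. The mean level of the hepatocyte lists was 8.02, 9.18 and 9.99 on replicates 1, 5 and 6, against 6.43, 6.27 and 6.03 on replicates 2, 3 and 4 and 5.95 to 6.56 in sedentary hearts. Probes of these lists made up 0.690%, 1.46% and 2.46% of the summed raw signal on replicates 1, 5 and 6, against 0.383%, 0.428% and 0.333% on replicates 2, 3 and 4 and 0.329% to 0.373% in sedentary hearts. Raw signal includes background, which is higher on replicates 2, 3 and 6.

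**Figure D3:**
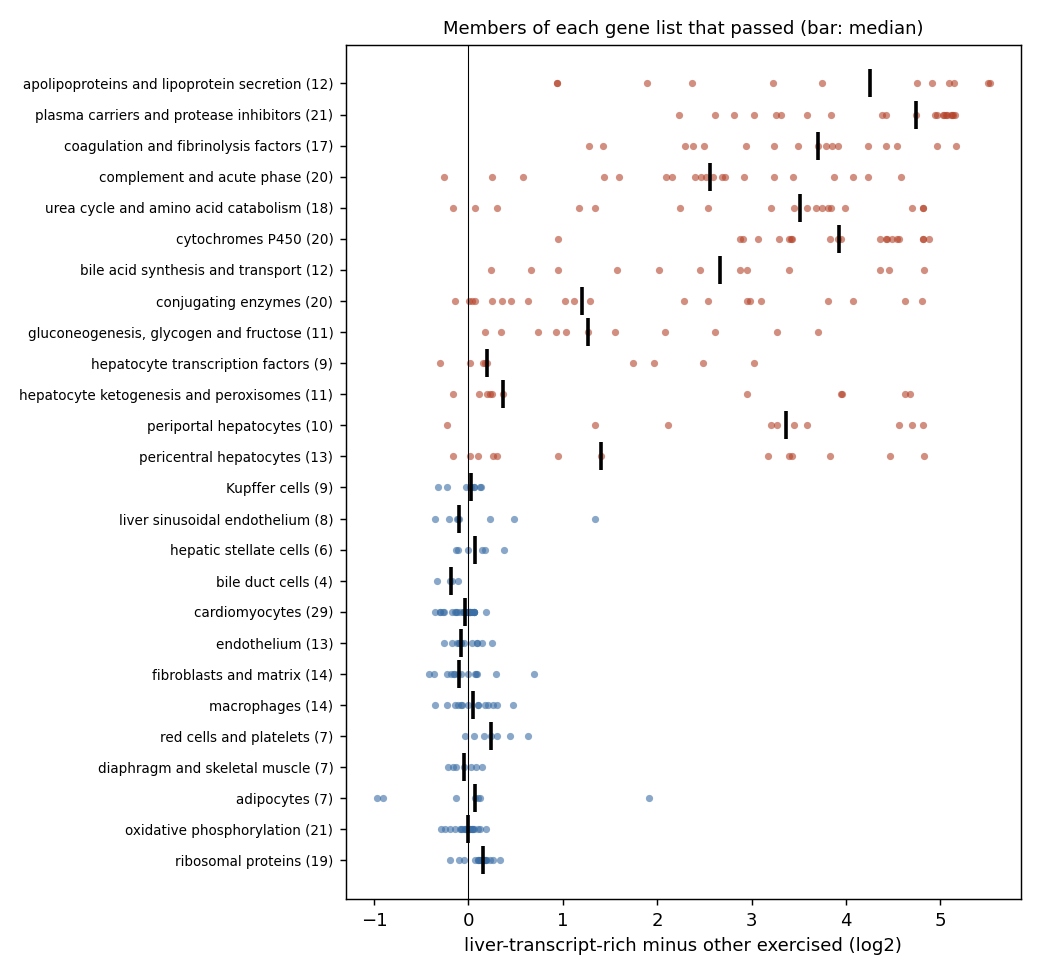
Difference between the liver-transcript-rich and the other exercised arrays (log2, horizontal axis) for the members of each gene list that passed, 1 point per gene, with the number that passed in parentheses and a black bar at the median, all as measured and without bounds, hepatocyte lists in red and other cell types and pathways in blue. The medians of the secreted plasma proteins, coagulation factors and P450 enzymes lie at 3.70 to 4.74, the hepatocyte transcription factors are spread between -0.30 and 3.02, and the cardiomyocyte list lies within -0.36 and 0.18.

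Hepatocytes differ along the liver lobule, and markers of both ends were examined. Of the periportal list, from the lobule edge where portal blood enters, 9 of 10 members that passed were called, with a median of 3.36. Cyp2f2, a periportal P450, was at 8.56, 10.21 and 11.23 on replicates 1, 5 and 6, against 5.95, 5.44 and 4.93 on replicates 2, 3 and 4, of which 2 detected it. Of the pericentral list, from around the central vein, 7 of 13 were called, with a median of 1.41. Cyp1a2, a pericentral P450, was at 7.05, 8.21 and 9.46 against 4.64, 4.59 and 5.21, of which 1 array detected it. Glul, glutamine synthetase, which is pericentral in liver and also present in heart, was at 6.24, 6.59 and 5.61 against 5.58, 5.54 and 6.41, and Axin2 and Tbx3 differed by 0.11 and 0.02. Both medians are the same with bounds. Whether the periportal and pericentral shares differ was not tested.

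The other cell types of the liver were examined through their own lists, whose counts stand beside the 2.58% of all genes called higher. Of the Kupffer cell list, the resident macrophages of liver, 0 of 9 members that passed were called, with a median of 0.03; with so few members, a count of 0 is near that share and is not a result about them. The list mean was 7.22, 7.47 and 7.28 on replicates 1, 5 and 6, against 7.09, 7.47 and 7.46 on replicates 2, 3 and 4. Clec4f, a lectin that marks Kupffer cells, was detected on replicate 6 alone, at 5.49, Cd5l was detected on no array, and Marco did not pass. Of the liver sinusoidal endothelium list, 2 of 8 were higher and 1 lower without overlap, beside 4.34% and 7.23% of all genes. Nothing is read from these counts. Differences were positive for 3 members and negative for 5. The median was -0.10, or 0.04 without replicate 3 and 0.07 without replicate 6, and 1 of 8 was called. That gene was Clec4g, a lectin of this endothelium, at 6.96, 8.18 and 7.82 on replicates 1, 5 and 6, against 5.93, 6.54 and 6.49 on replicates 2, 3 and 4, with sedentary hearts at 6.62 to 7.20. Stab2, a scavenger receptor of the same cells, did not overlap between the groups, at 5.52, 5.57 and 5.52 against 5.20, 4.73 and 5.24, and differed by 0.48. Of 6 stellate cell genes and 4 bile duct genes that passed, 0 were called, with medians of 0.07 and -0.19, and the duct markers Krt19 and Epcam were detected on no exercised array. Krt8 and Krt18, the keratins of hepatocytes and of other epithelia, were called at 1.90 and 1.18.

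Lists of cardiac and other cells held no called gene, a count that is again set beside the 2.58% of all genes. Of 29 cardiomyocyte genes 0 were called, with a median of -0.03, and the list mean was 13.57, 13.54 and 13.53 on replicates 1, 5 and 6, against 13.64, 13.63 and 13.57 on replicates 2, 3 and 4. Myh6, the main myosin heavy chain of the mouse heart, was at 14.53, 14.50 and 14.77 against 14.63, 14.67 and 14.33. Actn2, Myom1 and Ryr2, of the sarcomere and of calcium release, lay below the other exercised arrays without overlap, by 0.12, 0.26 and 0.27 log2 units; these are 3 of 29 genes, where 7.23% of all genes were lower without overlap, and nothing is read from the count. With cyclic loess the differences were -0.16 for Myom1 and -0.15 for Ryr2. Atrial markers varied between arrays of both kinds. Their list mean was 9.12, 10.12 and 10.25 on replicates 1, 5 and 6, against 9.08, 9.67 and 10.13 on replicates 2, 3 and 4 and 8.47 to 10.40 in sedentary hearts, with 0 of 9 called and a median difference of 0.13. It was -0.53 within the low and 0.86 within the high background range. Myl4, an atrial myosin light chain, was at 12.47, 14.22 and 13.98 against 12.16, 13.66 and 14.46, so the groups overlapped. The median differences were -0.08 for endothelium, -0.10 for fibroblasts and matrix, 0.05 for macrophages, 0.23 for red cells and platelets and -0.04 for diaphragm and skeletal muscle, with 0 members called in each of these lists. Alas2, of heme synthesis in red cell precursors, was at 10.46, 10.06 and 10.50 against 9.85, 9.49 and 9.79, a difference of 0.63, with sedentary hearts at 9.18 to 11.51. The part of these lists in the liver difference was not tested.

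The levels were graded among the 3 arrays. Of the 260 called genes, 250 (96.2%) were in the order replicate 6 above replicate 5 above replicate 1, which 16.5% of all genes showed. The median step was 0.92 log2 units between replicates 6 and 5 (quartiles 0.60 and 1.25) and 1.30 between replicates 5 and 1 (quartiles 1.01 and 1.55). The step between replicates 6 and 5 was not alike for all lists, with medians of 1.22 for the P450 enzymes, 1.10 for coagulation factors, 1.01 for plasma carriers, 0.74 for complement and acute phase genes and 0.50 for apolipoproteins. Upp2, a uridine phosphorylase, had the largest step, at 10.56 on replicate 6 against 7.74 on replicate 5, and Serpina6, corticosteroid-binding globulin, was at 8.08 against 6.02. Replicate 5 was the highest array for 9 genes, among them Bhmt, betaine-homocysteine methyltransferase, at 8.36 against 7.32 on replicate 6, Wfdc21, a whey acidic protein-like protein, at 7.52 against 6.45, and Clec4g. Replicate 6 has high raw background and replicates 5 and 1 low, and the part of background in these steps was not tested.

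**Figure D4:**
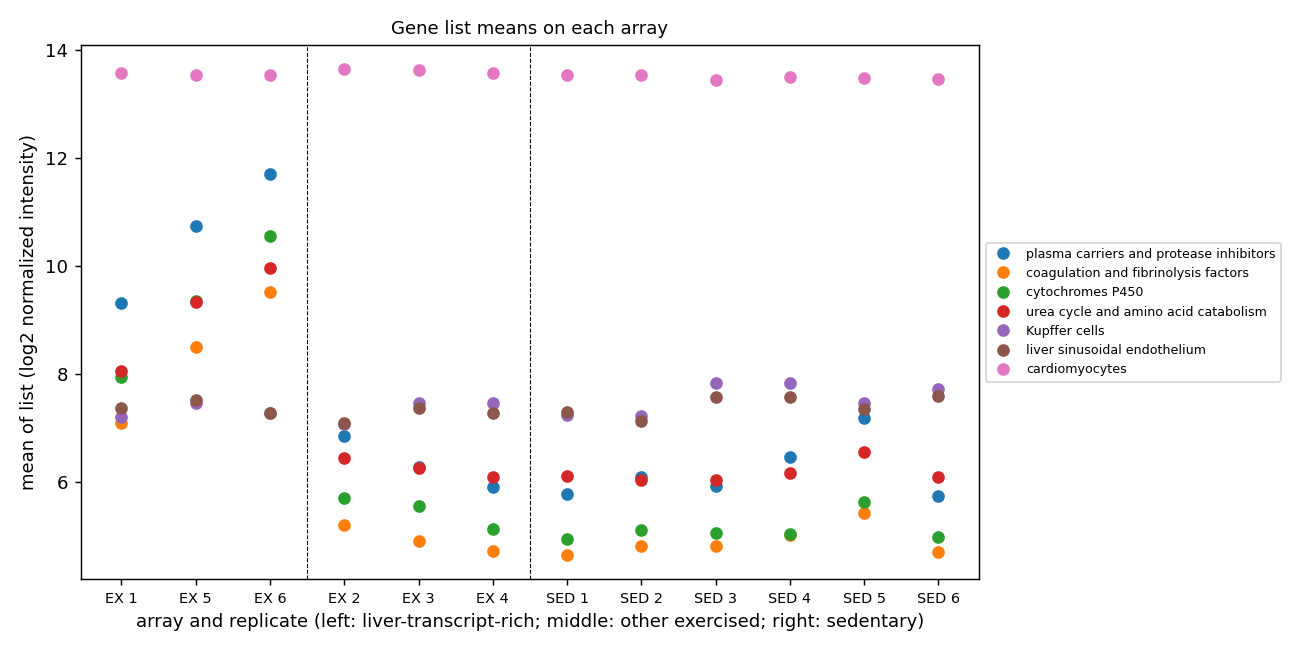
Mean level (log2 normalized intensity) of 7 gene lists on each array, from the liver-transcript-rich arrays on the left through the other exercised to the sedentary arrays on the right. The 4 hepatocyte lists have their highest means on the 3 liver-transcript-rich arrays, in the order replicate 6, 5 and 1, while the means of the Kupffer cell list lie between 7.22 and 7.47 there and between 7.09 and 7.47 on the other exercised arrays, and those of the cardiomyocyte list between 13.53 and 13.57 and between 13.57 and 13.64.

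Outside the hepatocyte lists, 132 genes were called higher. The largest differences belonged to Mup5, Mup6 and Mup21, further major urinary proteins, at 4.84, 4.82 and 4.72, followed by Slc27a2, a fatty acid transport protein, at 4.68. Pon1, the paraoxonase of high-density lipoprotein, differed by 4.43 and Aqp9, the glycerol channel of hepatocytes, by 4.16. Gjb2, a gap junction protein of hepatocytes, was at 6.79, 8.36 and 9.57 on the liver-transcript-rich arrays and detected on none of the other exercised arrays. Mcm10, a DNA replication factor, was at 7.14, 8.25 and 9.63 on replicates 1, 5 and 6, against 5.26, 4.95 and 4.50 on replicates 2, 3 and 4, a difference of 3.43, with detection on 1 of the other exercised arrays. Among genes also detected on all 12 arrays, Vtn, vitronectin, was at 9.61, 10.21 and 11.22 against 8.88, 8.74 and 8.96, and Egfr, the epidermal growth factor receptor, at 7.40, 8.51 and 9.30 against 7.06, 7.28 and 7.30. These genes were named after their values were seen.

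Promoters of the called genes were searched for 3 letter patterns of liver-enriched factors, as a description. In the RefSeq promoter table (GRCm38.p6, 250 bases before to 50 after each gene start), 210 of the 260 genes had 251 windows. The HNF1 pattern, GTTAAT followed by any base and ATT, searched on both strands like the others, was in 10 windows (3.98%), against 0.190% of the windows of all genes that passed and 0.399% of all 32851 promoters in the table. The HNF4A pattern CAAAGTCCA was in 2.79%, against 0.447% of windows of genes that passed and 0.475% of all promoters, and the C/EBP pattern TTGCNNAAT in 5.58%, against 1.68% and 2.40%. A match describes these letters only, and no binding was measured. Of the 10 genes with the HNF1 pattern, 6 are shown, picked after the search for their roles in plasma proteins, glucose release and HNF1 itself; the others are Glyctk, Hgfac, Prodh2 and Ugt1a10. The 6 windows below hold the HNF1 pattern, in capitals, within 60 bases written 5′ to 3′ on the strand of the gene. They belong to C4bp, a regulator of complement, at chr1:130661648-130661707 (minus strand), at least 6.17-fold higher; F13b, at chr1:139501627-139501686 (plus strand); G6pc, the glucose-6-phosphatase that releases glucose from liver, at chr11:101367470-101367529 (plus strand), with a difference of 2.08; Habp2, a plasma protease, at chr19:56287821-56287880 (plus strand), at least 3.05-fold higher; Hc, complement C5, at chr2:35061456-35061515 (minus strand), at least 4.36-fold higher; and Pcbd1, a dimerization cofactor of HNF1, at chr10:61089271-61089330 (plus strand), with a difference of 1.81. In F13b and Hc the capitals are the pattern on the opposite strand, and of the 10 promoters that of Prodh2, not shown, also holds the C/EBP pattern.
C4bp: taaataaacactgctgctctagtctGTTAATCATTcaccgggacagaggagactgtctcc
F13b: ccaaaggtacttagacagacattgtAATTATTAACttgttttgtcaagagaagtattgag
G6pc: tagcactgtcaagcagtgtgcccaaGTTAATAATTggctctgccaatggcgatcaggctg
Habp2: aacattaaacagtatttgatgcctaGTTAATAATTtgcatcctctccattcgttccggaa
Hc: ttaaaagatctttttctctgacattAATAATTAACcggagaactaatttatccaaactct
Pcbd1: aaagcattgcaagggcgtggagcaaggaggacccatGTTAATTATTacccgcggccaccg

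On the lower side no gene reached the size of a call, and the most negative difference without overlap was -0.92. Without replicates 2, 3, 4 or 6 in turn, 5, 3, 9 and 5 genes reached it. With non-overlap alone, 438 genes (4.34%) lay above and 729 genes (7.23%) below the other exercised arrays, so that 37.5% were above. That split depended on the scaling. It was 71.0% above with median scaling and 63.1% with cyclic loess, under which the median difference of all genes became -0.28 and 0.01, in that order. The -0.92 was that of Zfp280c, which was detected on 1 of the liver-transcript-rich arrays. Among non-overlapping genes detected on all 6 exercised arrays, the most negative differences were -0.89 for Ppip5k2 and -0.72 for Mcat. Ppip5k2, an inositol pyrophosphate kinase, was at 7.81, 7.74 and 7.65 on replicates 1, 5 and 6, against 8.90, 8.86 and 8.12 on replicates 2, 3 and 4, with sedentary hearts at 7.96 to 8.51. Mcat, of mitochondrial fatty acid synthesis, was at 10.69, 10.21 and 9.65 against 10.72, 10.93 and 11.05, with sedentary hearts at 10.74 to 10.98. For Mcat the order of the liver-transcript-rich arrays was the reverse of that of the liver genes, and replicate 1 lay beside replicate 2. The difference in Mcat belongs to 1 probe: the median over its passing probes gave a difference of 0.03. These genes were named after their values were seen.

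The sedentary hearts took no part in the choice of arrays, so a relation of liver genes to Apoa2 could be tested there. The family was 10 genes detected on all 6 sedentary arrays: Apoa1, Kng1, Ttr, Ambp, Serpina1b, Serpina1c, Serpina1d, Serpina1e, Fga and Ass1. Pearson's r with Apoa2 was 0.69 (Ass1) to 0.96 (Serpina1b), with a median of 0.90. By an exact two-sided permutation test over 720 pairings, 9 of the 10 genes had an adjusted p of 0.0347 to 0.0401, and Ass1 had 0.125 (Benjamini-Hochberg over the 10 genes). Spearman's rho was 0.49 to 0.89, with 0 genes called, exact permutation adjusted p of 0.117 to 0.356, and 1 gene, Kng1, at an unadjusted p under 0.05. The relation rests on few arrays. Sedentary replicate 5 was highest for Apoa2, at 9.50 against 8.08 on the next array, and the median r was 0.60 without it. Without replicates 5 and 6, the arrays farthest from the median of Apoa2, r on the remaining 4 arrays ran between -0.04 (Serpina1c) and 0.96 (Kng1). Replicate 2 is the sedentary array of high background, and without it the median r was 0.91. The 5 Serpina1 genes may share signal, so the 10 genes are fewer than 10 independent measures. Of the 260 genes called higher among the exercised arrays, sedentary replicate 5 was the highest sedentary array for 138 (53.1%), against 10.7% of all genes. Only 70 of the 260 were detected on all 6 sedentary arrays, and replicate 5 was highest for 34 of these. Ranks of the remaining genes include signals that were not detected.

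**Figure D5:**
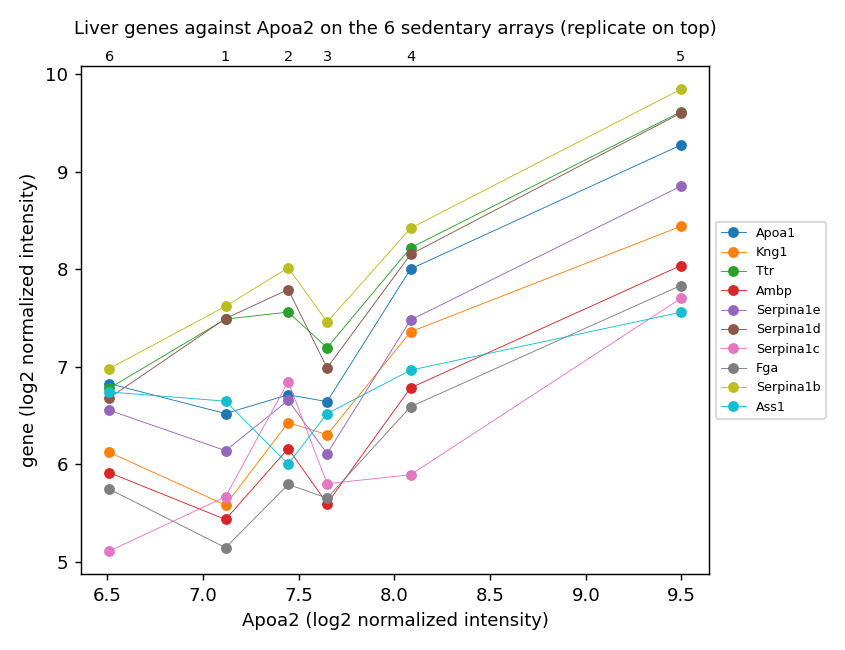
Level of 10 liver genes (log2 normalized intensity, vertical axis) against Apoa2 (log2 normalized intensity, horizontal axis) on the 6 sedentary arrays, with the replicate number above and thin lines joining the points of a gene. Replicate 5 lies at the right, at an Apoa2 level of 9.50, and has the highest value of each of the 10 genes; the other 5 arrays lie between 6.51 and 8.08.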

How the data were processed

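Biotin-labelled cRNA from 12 whole hearts was measured on Illumina beadchips. The authors deposited bead intensity per probe, not normalized, with a detection p-value for each, per the file headers. The authors' second deposited table holds processed values near a log2 scale; the submitters' processing notes name lumi, and how it transformed them is not given in the sources used. Intensities were corrected and quantile-normalized over all 12 arrays with limma 3.58.1 (neqc, offset 16) in R 4.3.3, and summarised in Python 3.11.15 with pandas 2.3.3. Of 17685 probes with detection p under 0.01 on at least 3 of 6 exercised arrays, 15344 had 1 gene symbol in the platform annotation (10378 of all 45281 probes had none and 18 several), and the probe of highest mean stood for each of 10089 genes.

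The arrays, the 35 gene lists and the settings were chosen with earlier results of these data known. The contrast has no test, because Apoa2 chose the arrays. The text names the 12 largest differences among called genes detected on all 6 exercised arrays, the 12 largest among those detected on none of the other 3, the 12 most negative called lower (there were none), the 4 markers, and up to 5 members per list, those of largest difference or named for their role. The calling rule was tested on simulated data, and the correlation test was not. Background ranges divide at a 5th percentile of raw signal of 75; no slide or scan date was used. Alternatives were other background corrections, normalizations and filters, the deposited values, the background range as a block and leaving out each array.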

Additional observations from a re-analysis of the deposited data

Results flagged for a closer look

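Among 120 groups of 6 values examined, 10 had an array far from the rest of its group, where chance gives about 6 (1 in 20), and many of the groups share genes. In 9 of the 10 the array was sedentary replicate 5, which lay above the other sedentary arrays. Its list means were 6.56 for urea cycle and amino acid catabolism, 5.64 for cytochromes P450, 6.48 for bile acid synthesis and transport, 7.98 for conjugating enzymes, 6.01 for periportal hepatocytes and 6.56 for all hepatocyte lists together. The same array stood apart for Cyp2c67 at 5.49, Hsd3b5 at 5.40 and Hao1 at 5.35 (log2 normalized intensity). Exercised replicate 1, one of the liver-transcript-rich arrays, stood above the other exercised arrays in the heat shock list, with a mean of 12.39.

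Probes without a gene name entered no list. Of 2341 such probes that passed, 29 (1.24%) were called higher in the liver-transcript-rich arrays and 0 lower, with a largest difference of 4.92. Of the genes with a name, each counted by 1 probe, 2.58% were called higher. The first share is of probes and the second of genes, so they are not like for like.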

How the results depend on the processing

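None of the called genes named in the text changed direction under the settings tried. Among the medians of the 11 single hepatocyte lists over these settings, 1 was at or below 0, at -0.0621. The 260 genes higher became 76 with detection on all 6 exercised arrays, 131 with detection on 6 of the 12 arrays, 162 with the deposited values, and 244 to 308 on leaving out single exercised arrays. The 0 genes lower became 2 with quantile normalization over the exercised arrays alone, 1 with the background range as a block, 22 within the low and 12 within the high background range, and 0 to 9 on leaving out single arrays. The median of the hepatocyte lists together, 3.05, was 1.15 with detection on all 6, 1.91 both with normexp and offset 50 and without background correction, 1.28 with the deposited values, 4.16 within the high range, and 2.49 to 3.73 on leaving out single arrays. The median was -0.19 for Kupffer cells, -0.25 for sinusoidal endothelium and -0.28 for cardiomyocytes with median scaling, under which the median of all genes was -0.28 against -0.06. For sinusoidal endothelium it was also 0.0497 without a filter, 0.0575 within the low range and -0.119 to 0.0696 on leaving out single arrays, and for cardiomyocytes -0.0770 within the high range. The cause of these shifts was not tested, except that fewer genes are admitted by stricter filters. The count of genes correlated with Apoa2 in sedentary hearts was 9, or 8 with the deposited values. Of the other list medians and named genes, 90 of 623 and 375 of 3993 recomputed values moved by more than the spread between replicates. No paired analysis was possible because the comparison lies within the exercised samples, whose replicate numbers all differ, and it has no test. Probes near background limit the low side of most liver genes.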

Other observations

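Heat shock genes set exercised replicate 1 apart from the other liver-transcript-rich arrays. Hspa1a, an inducible chaperone of the HSP70 family, was at 12.18 on replicate 1, 5.84 on replicate 5 and 6.47 on replicate 6, against 8.91, 7.23 and 6.34 on replicates 2, 3 and 4, with sedentary hearts at 6.64 to 9.49. Dnajb1, a co-chaperone of HSP70, was at 12.44, 10.24 and 10.60 against 11.14, 10.38 and 10.37, with sedentary hearts at 10.17 to 11.46. Hspa8, the constitutive HSP70, was at 13.79, 13.32 and 13.71 against 13.88, 13.85 and 13.80. The replicate with the lowest liver transcripts of the 3 was thus the highest exercised array for these inducible chaperones.

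Genes of cholesterol synthesis had a median difference of 0.25, with 0 of 11 called. Fdps, farnesyl diphosphate synthase, was at 9.28, 9.60 and 9.81 on replicates 1, 5 and 6, against 8.91, 8.96 and 8.78 on replicates 2, 3 and 4, without overlap. Car3, a carbonic anhydrase of adipocytes, liver and muscle, was at 6.93, 8.57 and 10.42 against 5.66, 8.27 and 6.25, where replicate 3 reached into the range of the liver-transcript-rich arrays. Stard10, a lipid transfer protein, was at 9.63, 10.78 and 11.31 against 9.17, 9.39 and 10.68, and the groups overlapped.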
